A study of Mus musculus with 4 samples.

Results

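The genes described here encode dystrophin (*Dmd*), its paralog utrophin (*Utrn*) and 6 members of the glycoprotein complex that both proteins join: dystroglycan (*Dag1*), alpha-, beta- and delta-sarcoglycan (*Sgca*, *Sgcb*, *Sgcd*), alpha-dystrobrevin (*Dtna*) and sarcospan (*Sspn*). The 8 genes were taken from the deposited count table by their symbols, and all 8 were found among its 24054 symbols. The libraries came from the soleus, a slow hindlimb muscle, of female *mdx* mice at the 12-month endpoint, 2 from mice given cardiosphere-derived cells of mouse origin (mCDCs) and 2 from mice given vehicle, the culture medium without cells. Infusions into the femoral vein had begun at 8 weeks of age and were repeated monthly. Every mouse in both groups carried the *mdx* mutation, so neither group is a wild-type reference. The mCDCs, infused at passage 5, had been grown from a heart of the parent strain, which has an intact *Dmd* gene, and counts per gene do not separate transcripts of infused cells from those of the host. The labels name the 2 muscles of a group as separate samples without saying that they came from separate mice, and p-values then measure only the spread between these samples, which may be technical.

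Dystrophin is a rod-like protein under the fiber membrane. One end binds actin and the other binds beta-dystroglycan, whose partner alpha-dystroglycan holds laminin outside the cell. The sarcoglycans and sarcospan sit in the membrane beside dystroglycan, and dystrobrevin and the syntrophins bind dystrophin on the inner side. When dystrophin is missing, the complex is largely lost from the membrane, and utrophin, which in healthy fibers is concentrated at the neuromuscular junction, can take part of its place. These are properties of proteins, and the libraries measured RNA only.

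Expected counts, the read numbers that RSEM assigns to each gene, summed to between 22481391 and 27187425 per library. They were scaled to CPM, counts relative to a common library size, by the trimmed mean of M-values (TMM) and compared with edgeR's quasi-likelihood test over 13652 genes. The study's cutoffs were kept for a call, an unadjusted p under 0.05 together with more than 1.5-fold. The 6 fiber markers (*Acta1*, *Ckm*, *Mb*, *Myh7*, *Myh2*, *Tnnt1*) summed to between 109250 and 120730 CPM, with *Myh7* at 38237 CPM or more in each library. *Myh7* encodes the slow myosin heavy chain. The 5 endothelial markers summed to 106 and 85.6 CPM in the 2 mCDC muscles and to 89.9 and 187 CPM in vehicle replicates 1 and 2, and the 4 markers of fibro-adipogenic cells to 199, 180, 198 and 341 CPM in the same order, so vehicle replicate 2 stood apart from the other 3 libraries in both. In such whole-muscle libraries, fewer cells of a type and less RNA per cell cannot be told apart.

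*Dmd* occupies chrX:82948870-85206141 on the plus strand of GRCm38. Its longest annotated transcript has 79 exons and 14910 bases and encodes the full-length protein of the fiber membrane. The *mdx* allele is a nonsense mutation in exon 23, at chrX:83803306-83803518, which turns a glutamine codon into a stop. The reference sequence of that exon is printed with this codon in capitals, to show where in the transcript the mutation lies. It was read from GENCODE and not from the mice.
Dmd exon 23: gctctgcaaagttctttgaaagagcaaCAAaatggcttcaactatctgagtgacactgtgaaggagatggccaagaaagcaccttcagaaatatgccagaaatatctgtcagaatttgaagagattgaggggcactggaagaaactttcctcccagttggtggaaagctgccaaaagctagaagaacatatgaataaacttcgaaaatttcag

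The first start of the 2 shorter coding transcripts lies 1244895 bases after the end of exon 23, at chrX:85048413. These transcripts do not contain the *mdx* codon and encode proteins without the actin-binding end. RSEM gave 1 value per gene, which sums both kinds, and the exon makes up only 213 of the 14910 bases of the long transcript. The *Dmd* counts are therefore a measure of all transcripts of the locus, mutant full-length ones included, and not of dystrophin protein.

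RefSeq start sites of GRCm38.p6 were on hand for 7 of the 8 genes. The 250 bases before the 2 *Dmd* starts are printed because the gene's single count joins their output. The first window, chrX:82948620-82948869 on the plus strand, precedes the long transcript and holds 1 CArG box, the site of serum response factor, in capitals. A CArG box was found in 1.47% of the 32851 windows of that length in the table. The second, chrX:85048045-85048294 on the plus strand, ends before a second RefSeq start at chrX:85048295 and holds 3 GC boxes (GGGCGG on either strand, in capitals, with 2 of them overlapping), a motif found in 32.7% of windows. The GENCODE transcripts that begin close to this start are retained-intron transcripts, and the short coding transcripts begin farther downstream, at chrX:85048413.
Dmd long transcript: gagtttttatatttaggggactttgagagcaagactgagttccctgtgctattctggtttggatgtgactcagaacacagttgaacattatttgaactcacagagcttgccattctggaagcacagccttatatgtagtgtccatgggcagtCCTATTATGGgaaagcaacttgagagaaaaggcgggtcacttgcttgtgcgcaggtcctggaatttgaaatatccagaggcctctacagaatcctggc
Dmd second RefSeq start: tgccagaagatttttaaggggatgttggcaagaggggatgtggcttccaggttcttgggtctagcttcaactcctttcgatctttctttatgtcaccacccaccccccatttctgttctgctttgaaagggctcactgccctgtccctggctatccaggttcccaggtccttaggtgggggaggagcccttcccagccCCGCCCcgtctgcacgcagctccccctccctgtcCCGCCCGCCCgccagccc

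The long window had 2 E-boxes (CANNTG), a motif of 66.2% of windows, and no GC box. Neither window held the N-box core (TTCCGG, in 12.0% of windows) or a MEF2 site (in 0.508%). Both strands were searched for every motif. A match is only a run of letters, and binding was not measured.

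*Dmd* and *Utrn*, the 2 genes whose proteins anchor the complex, were those in which the mCDC libraries did not overlap the vehicle libraries. *Dmd* had 33.1 and 32.8 CPM in the 2 mCDC muscles, against 44.8 and 44.1 CPM in the 2 vehicle muscles, in the order of their replicate numbers here and throughout. Both mCDC values lay below both vehicle values, and the replicates of a group were close to each other. The means were 33.0 ± 0.26 CPM in mCDC muscles and 44.4 ± 0.50 CPM in vehicle muscles (SD, n = 2), a log2 fold change of -0.43 with a standard error of 0.14 and a 95% interval from -0.74 to -0.12. By edgeR's quasi-likelihood test the unadjusted p was 0.0127 and the p adjusted over all genes 0.643. *Dmd* did not reach 1.5-fold and was not called.

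*Utrn*, on chr10:12382188-12869365, encodes a protein built like dystrophin. It had 25.3 and 25.7 CPM in the 2 mCDC muscles and 30.1 and 33.1 CPM in the 2 vehicle muscles. Again both mCDC values lay below both vehicle values, by a smaller margin. The log2 fold change was -0.31 (standard error 0.15, 95% interval from -0.65 to 0.025, edgeR adjusted p = 0.724), an interval that includes 0. *Utrn* is also made in endothelial cells, whose summed markers were highest in vehicle replicate 2. Without that library the value for *Utrn* was -0.24, and the part of these cells in it was not tested.

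Over all tested genes, the mCDC libraries lay below the vehicle libraries without overlap in 19.4%, and above them in 19.2%. Together this was 38.7% of genes, and of the 8 complex genes 2 were below and 0 above. No complex gene was called, where 1.26% of all tested genes were called higher and 2.74% lower. DESeq2 called 2.35% of genes in either direction and none of the 8. An unadjusted p under 0.05 was found for 1 of the 8, *Dmd*, and for 6.94% of all genes, or 4.09% on the lower side. *Dmd* had a p of 0.05 or more without mCDC replicate 1 or 2 and with the length and GC trend removed, and *Utrn* a p under 0.05 with total-count scaling. No gene had an adjusted p under 0.05, at 947 genes with an unadjusted p under 0.05, while 48 genes passed with DESeq2, 58 with edgeR's exact test and 66 with its likelihood ratio test, none of them a complex gene.

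**Figure D1:**
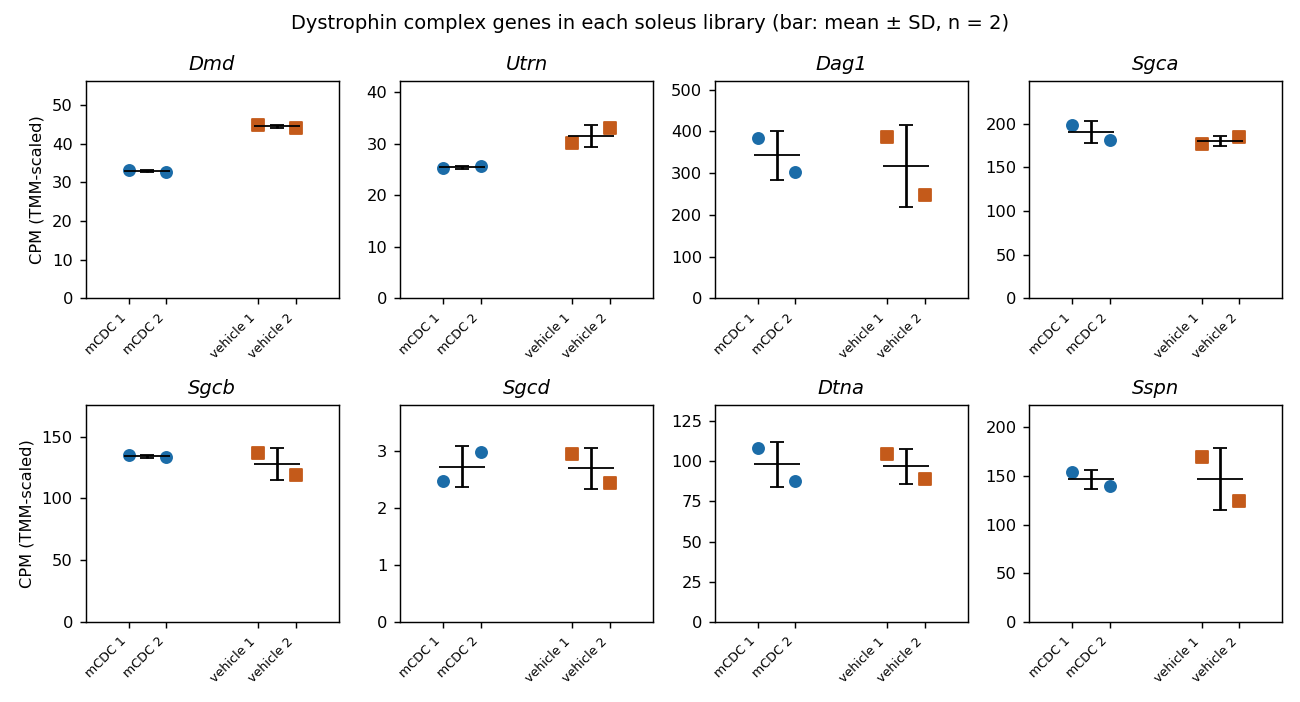
TMM-scaled CPM (y axis, from 0, a scale of its own in each panel) of the 8 genes in each library (x axis), with circles for mCDC and squares for vehicle libraries and bars for mean ± SD (n = 2). *Dmd* sits at 33.1 and 32.8 against 44.8 and 44.1 CPM and *Utrn* shows the same order, while the points of the other 6 genes overlap between the groups.

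The balance of the paralogs was also read within each library, where scaling has no part. There were 0.763 and 0.785 *Utrn* counts for each *Dmd* count in the 2 mCDC muscles, and 0.672 and 0.752 in the 2 vehicle muscles. The mCDC ratios were the 2 highest. The mean difference was 0.12 on the log2 scale (exact permutation test over the 4 libraries, two-sided, p = 0.333, the smallest p that 2 against 2 allows). It was 0.042 without vehicle replicate 1 and 0.20 without vehicle replicate 2. The 31-base words of *Dmd* transcripts and those of *Utrn* transcripts had none in common, and 0.206% and 0.187% of them occurred in any other gene, so few reads could have been divided between the paralogs.

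Both genes have long transcripts, and in these libraries the fold change moved with transcript length. The median log2 fold change over tested genes was 0.094 under 1 kb (816 genes), 0.066 from 1 to 2 kb, 0.014 from 2 to 4 kb, -0.11 from 4 to 8 kb and -0.18 at 8 kb or more (647 genes). The share of genes with a value below 0 ran from 33.2% in the shortest class to 78.1% in the longest. The interquartile range of the longest class lay between -0.35 and -0.028, which holds *Utrn*, while *Dmd* lay below it. A trend over length and GC content was fitted across genes in each library. With it removed, the log2 fold change was -0.28 for *Dmd* (edgeR quasi-likelihood test, unadjusted p = 0.0588) and -0.17 for *Utrn*. The cause of the length trend was not tested.

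**Figure D2:**
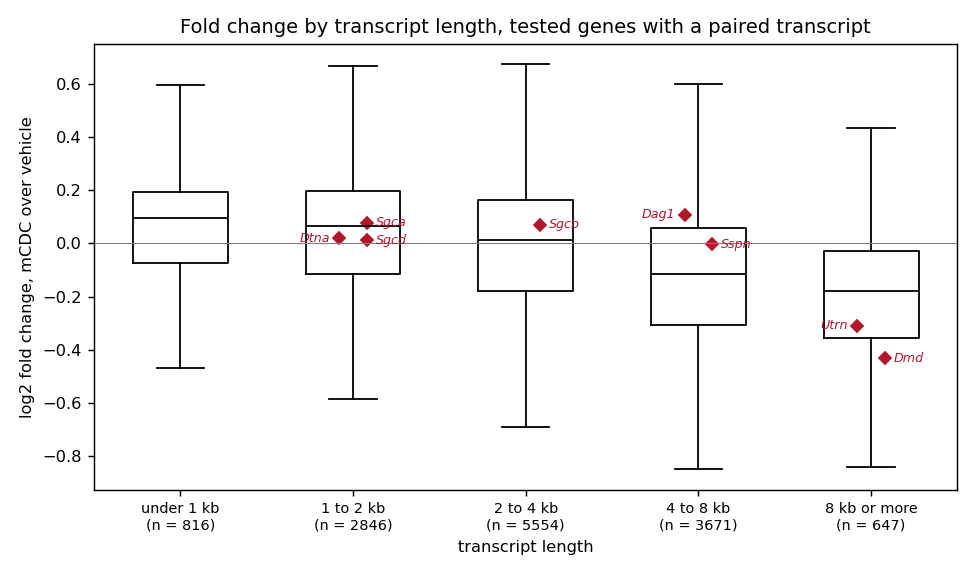
Log2 fold change of mCDC over vehicle (y axis) by transcript length (x axis, 5 classes with their numbers of genes), with boxes for the interquartile range, lines for the median, whiskers to 1.5 box lengths and diamonds for the 8 complex genes. Medians go from 0.094 in the shortest class to -0.18 in the longest, where *Dmd* and *Utrn* lie.

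*Dag1*, on chr9:108204634-108263958, encodes both dystroglycans, which are cut from a single precursor. It had 384 and 302 CPM in the 2 mCDC muscles and 388 and 249 CPM in the 2 vehicle muscles. A high and a low muscle stood in each group, and the vehicle replicates differed by 0.64 on the log2 scale. The log2 fold change was 0.11 (standard error 0.22, 95% interval from -0.40 to 0.62, edgeR adjusted p = 0.923). Of the 8 genes *Dag1* had the largest gap between replicates, at 6834 or more counts in the vehicle libraries, where counting error is 1.23% or less.

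*Sgca* and *Sgcb*, on chr11:94962791-94976327 and chr5:73632749-73647790, encode core sarcoglycans. *Sgca* had 199 and 182 CPM in the 2 mCDC muscles and 176 and 184 CPM in the 2 vehicle muscles. *Sgcb* had 135 and 133 CPM in the mCDC and 137 and 119 CPM in the vehicle replicates. The groups overlapped for both genes. Their log2 fold changes were 0.078 (standard error 0.13) and 0.069 (standard error 0.13), with 95% intervals from -0.22 to 0.38 and from -0.24 to 0.38.

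*Sgcd*, on chr11:46896253-47988969, encodes the sarcoglycan that assembles with beta-sarcoglycan. It had only 65.0 counts in each mCDC library and 77.0 and 67.0 counts in vehicle replicates 1 and 2, or 2.46, 2.97, 2.94 and 2.44 CPM. Counting error alone was 11.4% to 12.4% of such values. The log2 fold change was 0.011, and its 95% interval, from -0.62 to 0.64, is wide enough to hold a 1.5-fold change in either direction. Whether a difference of that size was present is therefore not settled by these libraries.

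*Dtna* encodes alpha-dystrobrevin, a relative of dystrophin that binds it and the syntrophins. It had 108 and 87.9 CPM in the 2 mCDC muscles and 104 and 89.1 CPM in the 2 vehicle muscles, and replicate 1 was the higher library in each group. The log2 fold change was 0.019 (95% interval from -0.34 to 0.38). *Sspn*, on chr6:145931641-145965223, encodes a membrane protein with 4 spans that stabilises the sarcoglycans. It had 154 and 140 CPM in the mCDC replicates and 169 and 125 CPM in the vehicle replicates, with the highest and the lowest values both in vehicle muscles. The log2 fold change was -0.0032 (95% interval from -0.39 to 0.39). Exons of *Dtna* and *Sspn* overlap annotated genes on the opposite strand, and whether the counting used strand is not given in the sources used here.

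The difference between the group means exceeded both gaps between replicates for 2 of the 8 genes, *Dmd* and *Utrn*, and for 25.2% of all tested genes. For *Sgca*, *Sgcb*, *Dtna* and *Sspn* the 95% interval lay inside a 1.5-fold change in both directions. For *Dmd*, *Utrn*, *Dag1* and *Sgcd* it did not, and these libraries leave room for a difference of that size. That room is on the lower side alone for *Dmd* and *Utrn*, on the higher side alone for *Dag1* and on both sides for *Sgcd*. The median log2 fold change of the 8 genes was 0.015, beside -0.0094 for all tested genes.

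**Figure D3:**
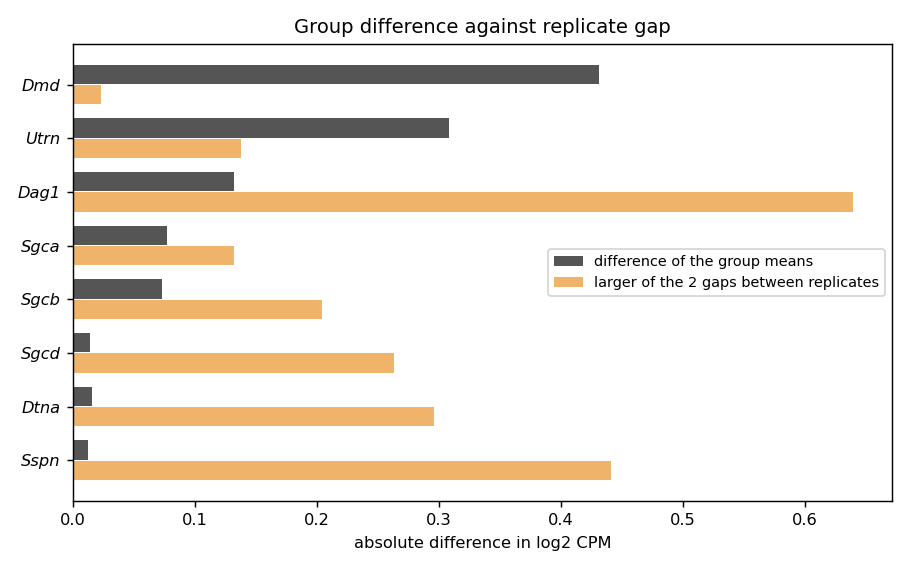
Absolute differences in log2 CPM (x axis) for each gene (y axis), with dark bars for the difference of the group means and light bars for the larger of the 2 gaps between replicates. The dark bar is the longer one only for *Dmd* (0.431) and *Utrn* (0.308), and the longest light bar is that of *Dag1*.

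Levels were compared between genes per length, as CPM per kilobase of the principal coding transcript. *Sgca* was highest, at a mean of 107 CPM per kb over the 4 libraries (range 102 to 115). *Dtna* (61.0, range 55.1 to 67.7) and *Dag1* (58.4, range 43.9 to 68.5) followed and overlapped. *Sgcb* (34.6, range 31.4 to 36.2) and *Sspn* (33.1, range 28.1 to 38.2) overlapped as well. *Dmd* (2.60, range 2.20 to 3.0) and *Utrn* (2.31, range 2.04 to 2.68) stood far below them, and *Sgcd* (1.67, range 1.51 to 1.84) was lowest. The ranges of *Dmd* and *Utrn* overlapped over the 4 libraries, while within each library *Dmd* was the higher of the pair, at 2.22 against 2.04 and 2.20 against 2.08 in the mCDC muscles and 3.0 against 2.43 and 2.96 against 2.68 in the vehicle muscles.

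These per-length values depend on which transcript is used as the gene's length. With the longest coding transcript in its place, *Dtna* had 15.5 CPM per kb and *Sgcd* 1.10, and with the shortest, *Dmd* had 20.8 and *Utrn* 43.3. With the shortest, *Dag1* came first at 700.04 and *Sgca* second at 528, and *Utrn* stood above *Sgcb* (34.6), *Sspn* (33.2) and *Dmd*. The order given for the principal transcript holds for that length only.

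**Figure D4:**
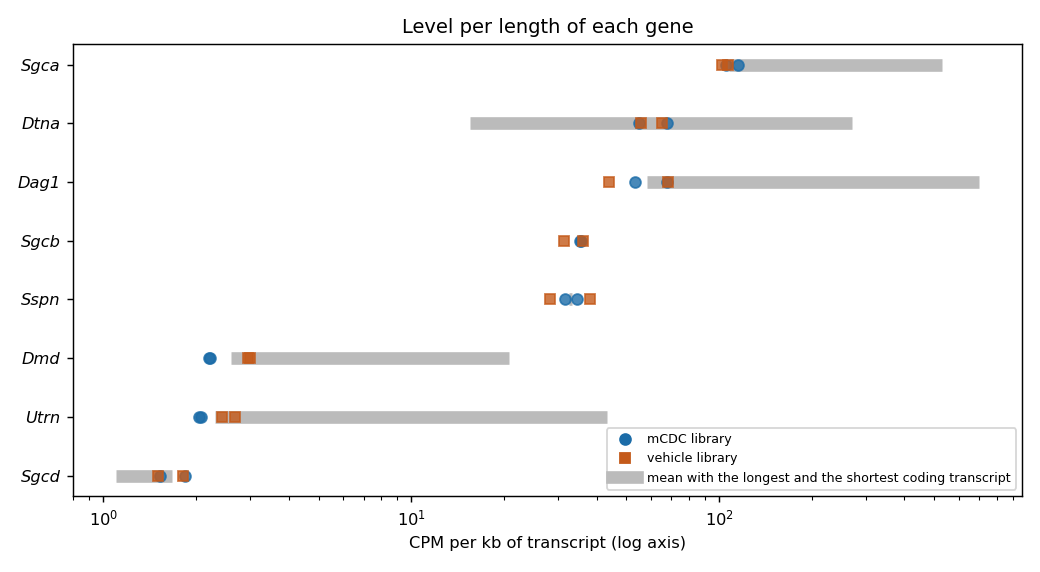
CPM per kilobase of transcript (x axis, log scale) of the 8 genes (y axis), with circles for mCDC and squares for vehicle libraries on the principal transcript, and grey bars for the range of the mean when the longest or the shortest coding transcript is used. *Sgca* is highest at 102 to 115, and *Dmd*, *Utrn* and *Sgcd* stand at 3.0 or lower on the principal transcript.

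Partners of the complex were then examined in 7 lists with 56 genes, of which 49 were tested. None was called higher and 3 were called lower, *Agrn*, *Synm* and *Ppargc1a*, beside 1.26% and 2.74% of all tested genes. The median log2 fold change was -0.017. Of the genes that were not tested, *Dytn* and *Sntg1* had no count, *Sgcz* had 1, and *Lama1*, *Krt19* and *Sntg2* had 0.327 CPM or less in any library.

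The relatives and the remaining sarcoglycans held no called gene. *Drp2*, a dystrophin relative of myelinating Schwann cells, had a log2 fold change of -0.025, and *Dtnb*, encoding beta-dystrobrevin, one of -0.089 at 1.86 CPM or less. Both values turned sign with single libraries left out, running from -0.16 (without vehicle replicate 2) to 0.13 (without vehicle replicate 1) for *Drp2* and from -0.82 (without mCDC replicate 1) to 0.35 (without mCDC replicate 2) for *Dtnb*. *Sgce*, encoding epsilon-sarcoglycan, which is made in many tissues, had -0.32 (standard error 0.29) at 2.42 to 4.15 CPM. Without vehicle replicate 2 it was -0.055 and without mCDC replicate 2 it was -0.14, against -0.55 without either of the others.

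Of 6 tested syntrophins and proteins bound to them, 0 were called. *Cav3*, encoding the caveolin of muscle membranes, had 94.0 and 117 CPM in the 2 mCDC muscles and 79.3 and 84.4 CPM in the 2 vehicle muscles. Its groups did not overlap, and the log2 fold change of 0.37 (standard error 0.15, edgeR adjusted p = 0.713) was short of 1.5-fold. It was 0.20 without mCDC replicate 2. *Nos1*, encoding the neuronal nitric oxide synthase that the complex holds at the membrane, had 1.63 and 1.23 CPM in the mCDC and 3.82 and 1.24 CPM in the vehicle replicates. A single vehicle library was high, and the log2 fold change of -0.80 had a standard error of 0.52. *Nos1* had 0.22 without vehicle replicate 1, and -1.40 without vehicle replicate 2, where it was called lower. *Sntb1*, encoding beta1-syntrophin, had 0.44 (standard error 0.44) at 1.26 CPM or less, with 1.09 without vehicle replicate 1 and -0.021 without vehicle replicate 2.

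Enzymes that build the laminin-binding sugar chain of alpha-dystroglycan were represented by 17 genes, all tested. 10 had a log2 fold change above 0 and 7 below, none was called, and the values ran from -0.34 to 0.28 with a median of 0.031. With total-count scaling 6 were above 0 and 11 below (median -0.047). Without mCDC replicate 1 it was 8 and 9 (median -0.038), without mCDC replicate 2 it was 12 and 5 (0.098), and without vehicle replicate 1 it was 13 and 4 (0.12). *Pomt1*, which starts the chain by adding mannose, had 15.3 and 16.4 CPM in the 2 mCDC muscles and 13.4 and 12.8 CPM in the 2 vehicle muscles. These did not overlap, at a log2 fold change of 0.28 (standard error 0.16, edgeR adjusted p = 0.747).

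Among extracellular proteins that bind dystroglycan, 6 were tested, all had a log2 fold change below 0 (51.6% of all tested genes did), and the median was -0.36. The share below 0 was higher among long transcripts, at 67.2% from 4 to 8 kb and 78.1% at 8 kb or more. The *Lama2* transcript has 9614 bases. With the length and GC trend removed the median of the list was -0.29. Without vehicle replicate 2 the median was -0.18 and *Lama5* and *Hspg2* had 0.22 and 0.20, and without vehicle replicate 1 the median was -0.57. *Lama5* and *Hspg2* were above 0 without mCDC replicate 1 too (0.029 and 0.17), as was *Hspg2* with the length and GC trend removed (0.062). *Agrn*, encoding agrin, which clusters acetylcholine receptors at the synapse, was called lower. It had 29.7 and 27.1 CPM in the 2 mCDC muscles and 34.5 and 50.7 CPM in the 2 vehicle muscles. Its log2 fold change was -0.59 (standard error 0.20, edgeR adjusted p = 0.684). The highest value was in vehicle replicate 2, the library with most endothelial and fibro-adipogenic marker RNA, and without it the log2 fold change was -0.28 and *Agrn* was not called. Without mCDC replicate 2 it was -0.52, again without a call. *Agrn* also fell just short of 1.5-fold with RLE size factors (-0.58), DESeq2 (-0.57) and the replicate block (-0.56). *Lama2*, encoding the laminin chain of the muscle basement membrane, had 41.2 and 38.5 CPM in the mCDC and 45.9 and 44.5 CPM in the vehicle replicates, a log2 fold change of -0.18 (standard error 0.14). After removal of the length and GC trend it was -0.024. *Egflam* and *Bgn*, picked out after their values were seen, had -0.51 and -0.50 with unadjusted p of 0.0350 and 0.0402 in edgeR's quasi-likelihood fit, short of 1.5-fold. Both were called lower with total-count scaling (-0.59 each) and without vehicle replicate 1 (-0.59 and -0.79), and *Bgn* had -0.15 without vehicle replicate 2.

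*Synm*, encoding synemin, an intermediate filament protein that binds dystrophin and dystrobrevin, was the called gene among 10 tested genes of the linked cytoskeleton. It had 344 and 300 CPM in the 2 mCDC muscles and 547 and 445 CPM in the 2 vehicle muscles. The groups stood apart by more than either replicate gap, at a log2 fold change of -0.62 (standard error 0.16, edgeR adjusted p = 0.571). Without mCDC replicate 2 it was -0.53 and without vehicle replicate 1 it was -0.46, and neither value reached 1.5-fold. 6 genes of that list had values above 0 and 4 below, and it was 5 and 5 in thinned counts and without mCDC replicate 1 or vehicle replicate 2. The highest of them, *Actg1*, had 0.43 and was not called. It ran from 0.061 to 0.93 with a library left out, at its largest more than 1.5-fold higher.

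*Ppargc1a*, encoding the coactivator PGC-1alpha, was called lower among 6 factors known to act on the utrophin promoter. It had 35.7 and 29.6 CPM in the mCDC and 60.3 and 45.6 CPM in the vehicle replicates, a log2 fold change of -0.70 (standard error 0.18, edgeR adjusted p = 0.612). The mCDC values lay below both vehicle values. It was -0.57 without mCDC replicate 2 and -0.48 without vehicle replicate 1, in both cases short of 1.5-fold. With the length and GC trend removed, *Agrn*, *Synm* and *Ppargc1a* had -0.50, -0.49 and -0.53 and none of the 3 was called, so that no gene of the 7 lists was.

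**Figure D5:**
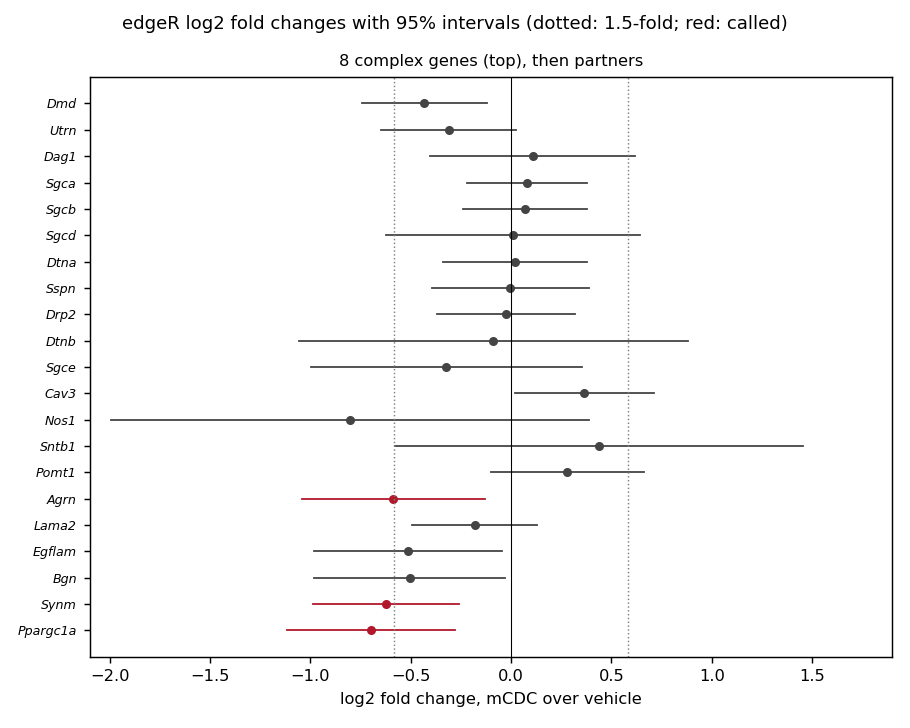
Log2 fold changes of mCDC over vehicle (x axis) with 95% intervals from edgeR's quasi-likelihood test for the 8 complex genes and most tested partners named in the text (y axis), with dotted lines at 1.5-fold and called genes in red. *Lama5*, *Hspg2* and *Actg1* are not drawn. The interval of *Dmd* runs from -0.74 to -0.12, and the 3 red genes, *Agrn*, *Synm* and *Ppargc1a*, all lie below 0.

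The remaining marker lists were set beside these values. Synaptic markers (*Chrna1*, *Chrne*, *Musk*, *Rapsn*, *Ache*) summed to 193 and 208 CPM in the 2 mCDC muscles and 181 and 170 CPM in the 2 vehicle muscles, with 4 of 5 above 0 on the log2 scale and none called. Regenerating-fiber markers summed to between 566 and 641 CPM in every library, pericyte markers to 155 and 136 against 170 and 169 CPM with *Rgs5* called lower, and Schwann cell markers to between 50.9 and 67.4 CPM. Smooth muscle markers summed to between 96.4 and 129 CPM, macrophage markers to between 13.7 and 26.1 CPM, satellite cell markers to between 6.72 and 8.60 CPM, and adipocyte markers to between 3.49 and 15.4 CPM. Called markers of these lists and of fibro-adipogenic cells, beside *Rgs5*, were *Pax7* of satellite cells (log2 fold change 0.76) and *Cd68* of macrophages (1.49), both higher, and *Csf1r* of macrophages (-0.67), *Pdgfra* (-0.74) and *Lum* (-1.02) of fibro-adipogenic cells, all lower. *Cd68* had 15.4 CPM in mCDC replicate 2 and between 2.71 and 4.15 CPM in the other libraries, and the groups overlapped. Of the cardiac markers, *Myl7* had no count and *Nppa* at most 0.255 CPM, while *Myh6* and *Tnnt2* had 45.4 CPM or more in every library. Their part in the values of the complex genes was not tested.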

How the data were processed

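Soleus muscles of *mdx* mice, 2 per group, were measured by RNA-seq. Single-end reads were mapped by the authors to a UCSC transcript set (Bowtie2 2.1.0, RSEM 1.2.15 and mm10 in the submitters' processing notes), and the deposited values are expected counts per gene without normalization. For the libraries, the labels give TruSeq Stranded mRNA and the paper's methods a kit of another maker. Rounding to whole numbers preceded testing in R 4.3.3 with edgeR 4.0.16 (filterByExpr, TMM, quasi-likelihood F-test with legacy = FALSE). Standard errors were derived from the F statistic, and 95% intervals use the moderated degrees of freedom. p was adjusted over all 13652 genes by Benjamini-Hochberg. Counting error is the inverse square root of the expected count and covers counting only, with totals of 22481391 to 27187425 per library. Counts simulated with 200 changed genes were used to check the procedure.

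The complex genes and all lists were chosen with earlier results of these data known. Of the partners, every called gene, the 2 with the smallest p in a list with none called, and 8 core genes were to be named, and some of them are not reported here. Symbols were paired with GENCODE M21 transcripts (GRCm38), 22750 directly and 935 through an earlier symbol, with 369 left over. The principal transcript is the longest marked as such by GENCODE. Alternatives were DESeq2 1.42.0, other edgeR tests, RLE or total-count scaling, other filters, thinned counts, a length and GC trend taken out with mgcv, replicate number as a block, and leaving out each library. Data on function, histology and antibodies were not used here.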

Additional observations from a re-analysis of the deposited data

How the results depend on the processing

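Each library was left out in turn and 12 other settings were tried, and no complex gene was called under any of the 16. The log2 fold change of *Dmd* stayed below 0, from -0.44 to -0.42 with a library left out and from -0.51 to -0.27 otherwise, with adjusted p of 0.398 or more. Its unadjusted p was under 0.05 in 12 of the 16 settings, and that of *Utrn* in 1, total-count scaling. The exceptions for *Dmd* were the fits without mCDC replicate 1 or 2 and those with the length and GC trend removed, with or without the block. *Utrn* stayed below 0 too, from -0.37 to -0.24 and from -0.39 to -0.16. The other 6 genes changed sign under some settings, with no call, and *Dag1* reached 0.47 without vehicle replicate 1 (unadjusted p = 0.0525 from edgeR). With total-count scaling, *Sgca*, *Sgcb*, *Sgcd* and *Dtna* had -0.0022, -0.0088, -0.067 and -0.059. With the length and GC trend removed, *Sgca*, *Sgcd*, *Dtna* and *Sspn* had -0.021, -0.026, -0.016 and 0.081, and with the replicate block as well -0.023, -0.026, -0.020 and 0.089. *Sspn* had 0.0063 with DESeq2 and 0.012 with the replicate block, and *Sgcd* -0.051 in thinned counts. With a library left out, *Dag1* ran from -0.18 to 0.47, *Sgcb* from -0.031 to 0.18, *Sgcd* from -0.12 to 0.16, *Dtna* from -0.14 to 0.16, *Sspn* from -0.21 to 0.24 and *Sgca* from 0.012 to 0.14.

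The number of genes with an adjusted p under 0.05 was 48 with DESeq2, 66 with the likelihood ratio test and 58 with the exact test, and 0 to 91 with a library left out, where the lone sample of a group is assumed to vary like the others. Genes called higher ran from 112 to 397 and lower from 236 to 834 with a library left out, and 234 were lower with the length and GC trend removed and the replicate block. Partner genes called were 5 with total-count scaling, 0 with the trend removed, with or without the block, and 0 to 4 with a library left out. With total-count scaling 19.2% of calls were higher, against 31.5% with TMM. Without mCDC replicate 1 it was 42.2%. Of the partners, *Synm* and *Ppargc1a* were called under 12 of the 16 settings and *Agrn* under 9. Replicate numbers are shared by the groups but the labels tie them to nothing, and the correlation over genes of the deviations of replicate 1 in mCDC and vehicle muscles was -0.039. In the fit with the block, *Dmd* had -0.43 and *Utrn* -0.31, and 0 complex and 2 partner genes were called. The *Utrn* to *Dmd* difference was 0.12 with the block and ran from 0.042 to 0.20 with a library left out. The cause of these changes was not tested.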

Other observations

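Genes whose pattern over the 4 libraries was closest to that of *Dmd*, by the root mean square difference of centred log2 CPM among 3786 genes with a mean log2 CPM within 1 of it, were *Atrx*, *Golim4* and *Fut8*, at 0.022, 0.032 and 0.040. For *Utrn*, among 4145 such genes, they were *Prpf39*, *A630089N07Rik* and *Dmtf1*, at 0.013, 0.018 and 0.021. With 4 libraries, 7 genes came within 0.05 of *Dmd* and 14 within 0.05 of *Utrn*.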
